A study of Homo sapiens with 24 samples.

Results

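ARMCX3, ARMCX6, BEX4, HCLS1, C16orf54, UBE2E2, TRIP6, SPP1, PYCARD and GAS1 are 10 of the 19775 genes measured on 24 arrays of RT112 cells, a line derived from a human bladder cancer. They were chosen from the measured values: a gene's 24 log2 levels were sorted, and the widest gap between neighbouring arrays had to exceed 2 log2 units, a 4-fold step. Arrays above the gap are called on and arrays below it off. The words name the sides of the gap and make no statement about whether RNA was present.

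All cells carried a short hairpin RNA that doxycycline induces, and were kept in medium with 1% serum for 48 h with or without 1 µg/ml doxycycline. The titles name 3 lines with FGFR3 hairpins (2-4, 4-1 and 6-16) and 1 line with a hairpin against EGFP, a jellyfish gene that human cells lack. Each line had 3 arrays with doxycycline and 3 without, giving 8 groups of 3 arrays. The hairpins' vector, whether a line is 1 clone, and whether replicates are separate cultures are not given in the sources used here, so p-values measure the spread between these arrays, which may be technical.

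The genes belong to different pathways. ARMCX3 and ARMCX6 are armadillo-repeat proteins and BEX4 a small brain-expressed X-linked protein, from a gene cluster on the long arm of the X chromosome. ARMCX3 sits on the outer mitochondrial membrane and takes part in the transport of mitochondria in neurons. HCLS1 is the blood-cell relative of cortactin and binds branched actin, and C16orf54 encodes a predicted membrane protein that is little characterised. TRIP6 is a zyxin-family protein of focal adhesions, UBE2E2 passes ubiquitin to ubiquitin ligases, and SPP1 (osteopontin) is a secreted ligand of integrins and CD44. PYCARD (ASC) is the adaptor that joins inflammasome sensors to caspase-1, and GAS1 is a membrane-anchored co-receptor for Hedgehog ligands.

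The targeted gene was read first, as a check of the titles. FGFR3 changed with doxycycline by 0.15, -0.24, 0.42 and 0.16 on the log2 scale in the 2-4, 4-1, 6-16 and EGFP lines (SE 0.31 each; limma, adjusted p = 0.999, 1.00, 0.760 and 0.975), and passed in no line. TACC3, its fusion partner in this cell line, changed by 0.28, 0.32, -0.71 and 0.19 in the same lines (SE 0.46 each). TACC3 passed in no line either (limma, adjusted p of 0.735 or more). Whether each title belongs to its array could not be settled from these values, so every line, treatment, SE and p below holds only for the titles as given. The cells had high epithelial markers, with medians over the arrays of 12.90 for EPCAM, 13.94 for KRT18 and 13.32 for GATA3, while the umbrella-cell markers ranged from 5.87 for KRT20 and 7.23 for UPK3A to 8.96 for UPK2, 10.94 for UPK1A and 12.77 for UPK1B.

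ARMCX3 had the widest gap of all genes measured, 4.52 log2 units or 23.0-fold. Its level ran from 9.45 through a median of 9.64 to 10.31 on 18 on arrays, and from 4.25 through 4.73 to 4.93 on 6 off arrays. The titles of the off arrays are 2-4 without doxycycline replicate 2, 4-1 with doxycycline replicate 2, 4-1 without doxycycline replicate 1, 6-16 with doxycycline replicate 2, 6-16 without doxycycline replicate 2 and EGFP without doxycycline replicate 2. Every labelled line thus had at least 1 array on the off side. Because each array measures a whole culture, fewer cells of a type and less RNA per cell cannot be told apart.

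A total of 8 of the 10 genes were off on those same 6 arrays and on everywhere else, which covers 28 of the 45 possible gene pairs with an identical split. The other 2 genes, PYCARD and GAS1, each split the arrays in a way of their own. No array was on the smaller side of more than 1 of the 3 splits. The 24 arrays therefore fell into 4 sets of 6, called here the ARMCX3-off, PYCARD-off and GAS1-on arrays and the remaining arrays. These sets come from the measured values and are not the groups that the titles name, so their levels are given as ranges, with no average or test.

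**Figure D1:**
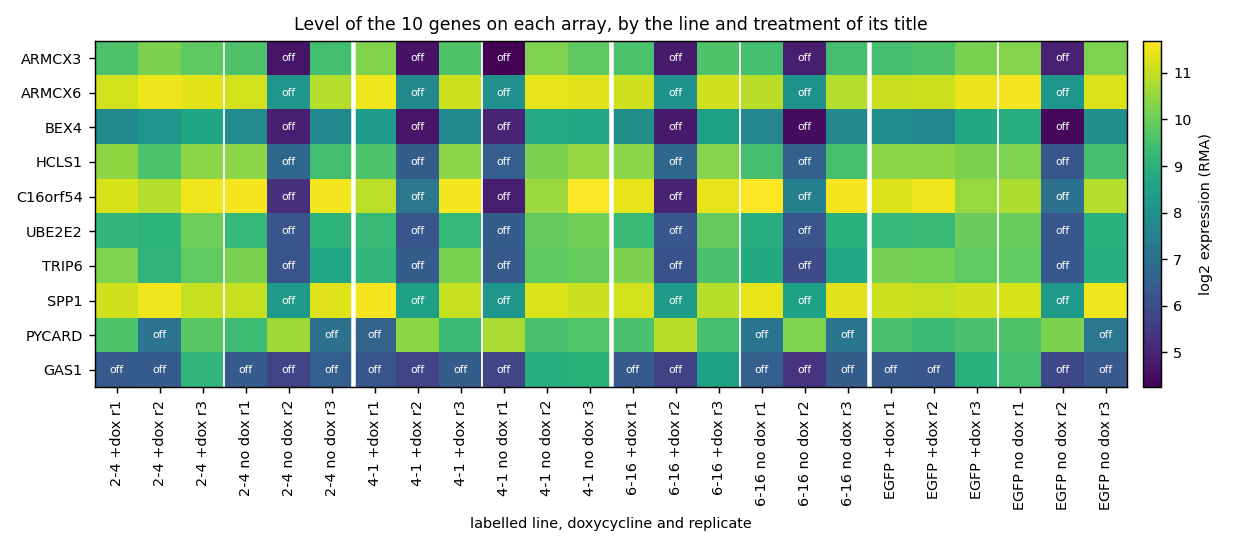
Log2 level of each of the 10 genes (rows) on each of the 24 arrays (columns), ordered by the line, doxycycline and replicate of the title, with thick lines between lines and thin ones between treatments. Colour gives the log2 level and off states are written in: 8 genes are low on the same 6 arrays, PYCARD is low on another 6, and GAS1 is high on a further 6.

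Of the X-linked genes, ARMCX6 reached 10.85, 11.18 and 11.57 (lowest, median and highest) on the 18 on arrays, and 7.76, 8.07 and 8.17 on the 6 off arrays. BEX4 reached 7.70, 7.96 and 8.90 on the on arrays, and 4.41, 4.72 and 5.04 on the off arrays. The off side of ARMCX6 was thus above the array medians of 6.98 to 7.08, whereas the off sides of ARMCX3 and BEX4 were below them.

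The promoters of ARMCX6, BEX4 and TRIP6 are shown because they shared a sequence among the genes with 1 split. RefSeq promoters (GRCh38.p14, 250 bases before to 50 after the start) matched 8 of the 10 genes, and ARMCX3 and C16orf54 were not among them. The motif CACGTGACC, searched on both strands and chosen after the sequences were read, was present in 3 of the 8 and in 1.31% of 27305 promoters. It contains the E-box CACGTG, which 7.43% of the promoters held and which overlaps it entirely. Capitals mark CACGTGACC or its reverse complement. The regions are chrX:101617951-101618250 on the minus strand for ARMCX6, chrX:103214842-103215141 on the plus strand for BEX4 and chr7:100867137-100867436 on the plus strand for TRIP6, each written 5′ to 3′ along the gene.
ARMCX6: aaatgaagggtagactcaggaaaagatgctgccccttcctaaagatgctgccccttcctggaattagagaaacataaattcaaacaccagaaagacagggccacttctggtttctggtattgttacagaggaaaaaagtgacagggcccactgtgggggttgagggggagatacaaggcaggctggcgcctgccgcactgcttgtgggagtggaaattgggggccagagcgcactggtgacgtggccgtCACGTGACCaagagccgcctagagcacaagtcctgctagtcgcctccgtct
BEX4: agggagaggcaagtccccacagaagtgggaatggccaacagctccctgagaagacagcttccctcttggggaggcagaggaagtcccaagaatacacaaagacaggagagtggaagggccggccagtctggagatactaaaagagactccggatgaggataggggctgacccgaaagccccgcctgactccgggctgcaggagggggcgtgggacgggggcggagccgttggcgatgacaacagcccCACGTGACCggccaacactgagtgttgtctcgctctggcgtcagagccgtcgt
TRIP6: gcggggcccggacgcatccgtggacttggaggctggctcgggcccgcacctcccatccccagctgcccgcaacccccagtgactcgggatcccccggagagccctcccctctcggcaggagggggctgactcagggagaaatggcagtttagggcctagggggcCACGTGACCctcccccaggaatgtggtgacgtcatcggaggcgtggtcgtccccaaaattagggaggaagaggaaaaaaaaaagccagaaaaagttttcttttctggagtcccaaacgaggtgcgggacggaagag
A match is a description of letters and not evidence that a factor bound there.

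The actin and adhesion genes had the same split. HCLS1 reached 9.44, 10.30 and 10.48 on the on arrays, and 6.23, 6.51 and 6.75 on the off arrays. TRIP6 reached 8.72, 9.88 and 10.26 on the on arrays, and 5.98, 6.24 and 6.45 on the off arrays. Both genes also showed a smaller step among their on arrays. HCLS1 was 9.44 to 9.61 on the 6 PYCARD-off arrays and 10.22 or more on the other 12 on arrays, and TRIP6 was 8.72 to 9.16 and 9.55 or more on the same arrays.

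C16orf54 had the widest spread on its off side of the 10 genes. It reached 10.55, 11.43 and 11.69 on the on arrays, and 4.87, 6.16 and 7.53 on the off arrays. The off arrays came as 3 arrays at 4.87 to 5.26 and 3 arrays at 7.06 to 7.53, a gap of 1.80. The lower 3 were 4-1 without doxycycline replicate 1, 6-16 with doxycycline replicate 2 and 2-4 without doxycycline replicate 2. TACC3, the fusion partner of FGFR3 in this cell line, was 10.79, 10.64 and 10.49 on those arrays and 11.96, 11.94 and 11.82 on the upper 3, so both genes were lower on the same 3 arrays.

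UBE2E2 and SPP1 completed the shared split. UBE2E2 reached 8.88, 9.25 and 10.09 on the on arrays, and 6.20, 6.25 and 6.45 on the off arrays. SPP1 reached 10.89, 11.17 and 11.60 on the on arrays, and 8.15, 8.33 and 8.51 on the off arrays. UBE2E2 was highest on the 6 GAS1-on arrays, at 9.89 to 10.09 against 9.29 or less on every other array. SPP1 was highest on the 6 PYCARD-off arrays, at 11.32 to 11.60.

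PYCARD had a gap of 2.10 and reached 9.30, 9.64 and 10.91 on 18 on arrays, and 6.62, 7.11 and 7.19 on 6 off arrays. The off arrays were 2-4 with doxycycline replicate 2, 2-4 without doxycycline replicate 3, 4-1 with doxycycline replicate 1, 6-16 without doxycycline replicates 1 and 3, and EGFP without doxycycline replicate 3. Its highest levels, 10.21 to 10.91, were on the 6 ARMCX3-off arrays, against 9.80 or less elsewhere. PYCARD therefore had 3 levels over the arrays rather than 2.

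GAS1 was the reverse case, on in the minority. It reached 8.52, 8.99 and 9.47 on 6 on arrays, and 5.39, 6.34 and 6.51 on 18 off arrays, with a gap of 2.01. The on arrays were 2-4 with doxycycline replicate 3, 4-1 without doxycycline replicates 2 and 3, 6-16 with doxycycline replicate 3, EGFP with doxycycline replicate 3 and EGFP without doxycycline replicate 1. Among the off arrays, the 6 ARMCX3-off arrays were the lowest, at 5.39 to 5.87 against 6.24 to 6.51.

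**Figure D2:**
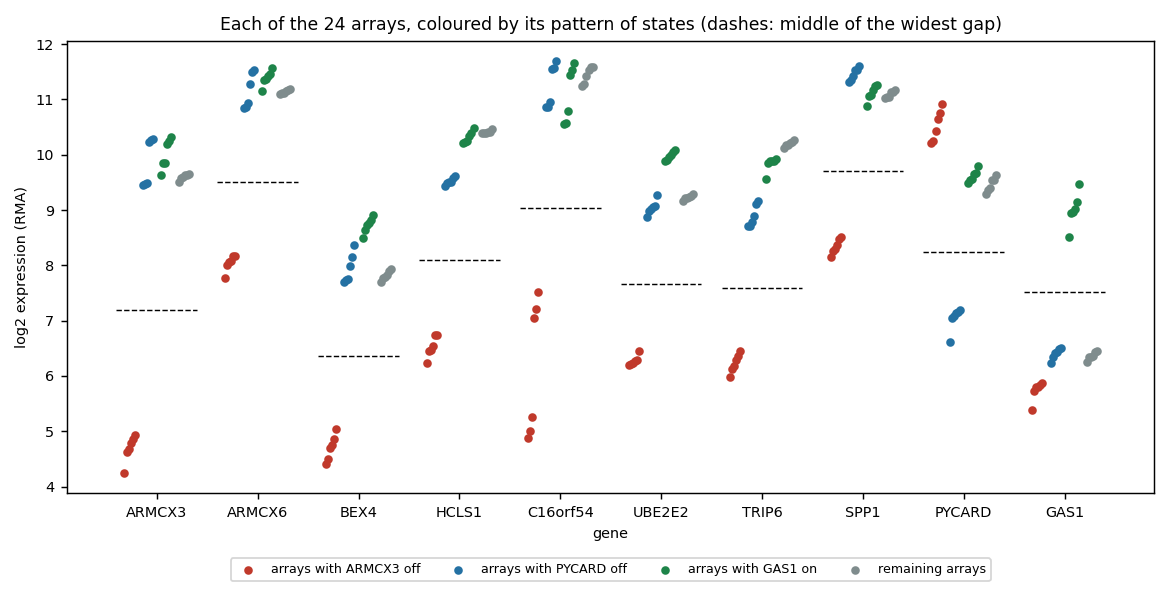
Log2 level (vertical axis) of the 10 genes (horizontal axis) on the 24 arrays, each point 1 array, coloured by the 4 array sets and sorted within a set, with dashes at the middle of the widest gap. ARMCX3 to SPP1 separate the ARMCX3-off arrays, PYCARD has 3 levels, and GAS1 is 8.52 or higher on the GAS1-on arrays only.

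PYCARD and GAS1, the 2 genes with splits of their own, are shown with HCLS1, a gene of the shared split, because their start regions differ in CG content. These 300 bases held 23 CG in PYCARD, 26 in GAS1 and 6 in HCLS1, against a median of 14 over 27305 promoters. Capitals mark CG. The regions are chr16:31202711-31203010 for PYCARD, chr9:86947457-86947756 for GAS1 and chr3:121660854-121661153 for HCLS1, all on the minus strand.
PYCARD: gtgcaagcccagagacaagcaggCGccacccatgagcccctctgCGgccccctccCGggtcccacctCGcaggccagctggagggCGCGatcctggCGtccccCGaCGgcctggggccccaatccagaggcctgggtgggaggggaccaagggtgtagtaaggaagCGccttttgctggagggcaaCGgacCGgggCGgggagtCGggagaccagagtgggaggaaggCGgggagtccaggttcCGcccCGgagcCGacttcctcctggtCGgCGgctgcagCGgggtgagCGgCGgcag
GAS1: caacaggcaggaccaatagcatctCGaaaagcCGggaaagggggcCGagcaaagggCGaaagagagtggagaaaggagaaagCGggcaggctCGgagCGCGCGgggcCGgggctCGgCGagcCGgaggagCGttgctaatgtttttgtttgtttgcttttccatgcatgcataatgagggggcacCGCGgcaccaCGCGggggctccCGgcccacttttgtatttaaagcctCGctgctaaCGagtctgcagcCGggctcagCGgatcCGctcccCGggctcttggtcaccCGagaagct
HCLS1: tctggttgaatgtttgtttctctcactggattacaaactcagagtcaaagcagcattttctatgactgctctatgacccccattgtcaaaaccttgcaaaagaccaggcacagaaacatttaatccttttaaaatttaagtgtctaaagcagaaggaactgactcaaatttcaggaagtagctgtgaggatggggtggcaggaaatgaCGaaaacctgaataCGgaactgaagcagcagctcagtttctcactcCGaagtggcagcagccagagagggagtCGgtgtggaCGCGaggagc
CG content did not follow the splits, since UBE2E2, another gene of the shared split, had 53 CG, more than 99.4% of promoters. ARMCX6 had 9, BEX4 16, TRIP6 18 and SPP1 6.

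ARMCX3 and C16orf54 shared a smaller step among their on arrays. ARMCX3 was 10.19 to 10.31 on 6 of its on arrays, 3 PYCARD-off and 3 GAS1-on arrays, and 9.45 to 9.85 on the other 12. C16orf54 was 10.55 to 10.95 on those same 6 arrays and 11.24 to 11.69 on the other 12, the opposite direction. TACC3 lay at 11.31 to 11.43 on these 6 arrays. Other genes of the shared split stepped elsewhere. BEX4 was 8.49 to 8.90 on the 6 GAS1-on arrays and 8.37 or less on all other arrays, but its widest gap among the on arrays, 0.22, set off 7 arrays. The widest such gap of ARMCX6, 0.16, set off 3 PYCARD-off arrays, and that of SPP1, 0.14, set off 1 array.

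The lines and groups of the titles did not group the states. Each of the 4 lines held arrays of all 4 sets, and 0 of the 8 groups had all 3 arrays in 1 set: 3 groups spanned 2 sets and 5 groups spanned 3. The 8 genes of the shared split were mixed in 6 of the 8 groups, PYCARD in 5 and GAS1 in 5, and all 10 were mixed within each of the 4 lines. By treatment, the ARMCX3-off arrays were 2 with and 4 without doxycycline, the PYCARD-off arrays 2 and 4, the GAS1-on arrays 3 and 3, and the remaining arrays 5 and 1. The replicate numbers were uneven. For replicates 1, 2 and 3, the ARMCX3-off arrays numbered 1, 5 and 0, and the PYCARD-off arrays 2, 1 and 3. The GAS1-on arrays numbered 1, 1 and 4, and the remaining arrays 4, 1 and 1. What a replicate number stands for is not given, and this unevenness was not tested.

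The labelled groups held 10.2% to 23.4% of the variance of the 10 genes over the arrays (median 13.5%), below the median of 26.4% over all genes. The 4 lines held 1.74% to 6.04%, against a median of 10.8% over all genes. Groups and lines drawn at random would also hold part of the variance, and that part was not computed. Neither median therefore shows that the titles account for variance in a typical gene. In limma's F-tests, which use titles that the gap rule did not, 0 of the 10 genes differed among the lines (adjusted p = 0.981 to 0.993) and 0 among the 8 groups (adjusted p = 0.989), where 0% of all genes were called in either. At an unadjusted p under 0.05 these tests held 367 and 476 of 19775 genes, and 0 of the 10, which is near those shares.

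With doxycycline, 0 of the 10 genes passed in any line, and 0% of all genes did so. With array weights the 6-16 line had 1291 of 19775 genes called, and 0 of the 10 were among them. Without weights, an unadjusted p under 0.05 was reached by 487 genes in 2-4 cells, 223 in 4-1 cells, 1539 in 6-16 cells and 505 in EGFP hairpin cells, with 0 of the 10 among them. A count of 0 in 10 is near each of these shares of the 19775 genes, so it says little about the 10. GAS1 illustrates the spread: in the 4-1 line it was 6.24, 5.81 and 6.45 with doxycycline, and 5.83, 8.95 and 9.03 without, a change of -1.77 (SE 1.02; limma, adjusted p = 1.00). The without-doxycycline arrays lay on both sides of the gap. PYCARD in the 6-16 line was 9.55, 10.91 and 9.48 with doxycycline, and 7.14, 10.25 and 7.16 without, a change of 1.80 (SE 1.07; limma, adjusted p = 0.719), and the 2 groups overlapped. ARMCX3 in the 2-4 line was 9.63, 10.22 and 9.84 with doxycycline, and 9.63, 4.68 and 9.45 without, a change of 1.98 (SE 1.93; limma, adjusted p = 0.999) that rests on 1 array.

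The mean change in the 3 FGFR3 lines minus the change in the EGFP line ran from -1.11 for HCLS1 (SE 1.53) to 0.06 for GAS1 (SE 1.18), and 0 of the 10 passed (limma, adjusted p = 1.00 for each), with 0% called over all genes and 428 genes at an unadjusted p under 0.05. ARMCX3 had -0.56 with an SE of 2.23. With such errors, a difference of several fold in these genes would not be detectable in this design.

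Other probe sets of the same genes were compared next, since each value above comes from the brightest 1. Only 5 of the 10 genes had another, 6 in all, and 2 of these 6 gave the same split. The second ARMCX3 probe set was 8.63 to 9.76 on the on arrays and 3.60 to 3.87 on the off arrays, a gap of 4.76. The second SPP1 probe set was 5.52 to 6.00 on the on arrays and 4.03 to 4.51 on the off arrays, a gap of 1.02. The other 4, for ARMCX6, TRIP6 and GAS1 (2 probe sets), showed no such split.

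Those 4 probe sets were flat over all 24 arrays, with a range of 0.782 at most. The ARMCX6 one lay at 7.22 to 7.62, the TRIP6 one, which names 2 genes, at 5.85 to 6.63, and the GAS1 ones at 5.48 to 6.21 and 6.17 to 6.54. Each was dimmer than the on side of the brightest probe set. BEX4, HCLS1, C16orf54, UBE2E2 and PYCARD had only 1 probe set, so their states rest on it. TRIP6 likewise had only 1 probe set with a single gene name.

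**Figure D3:**
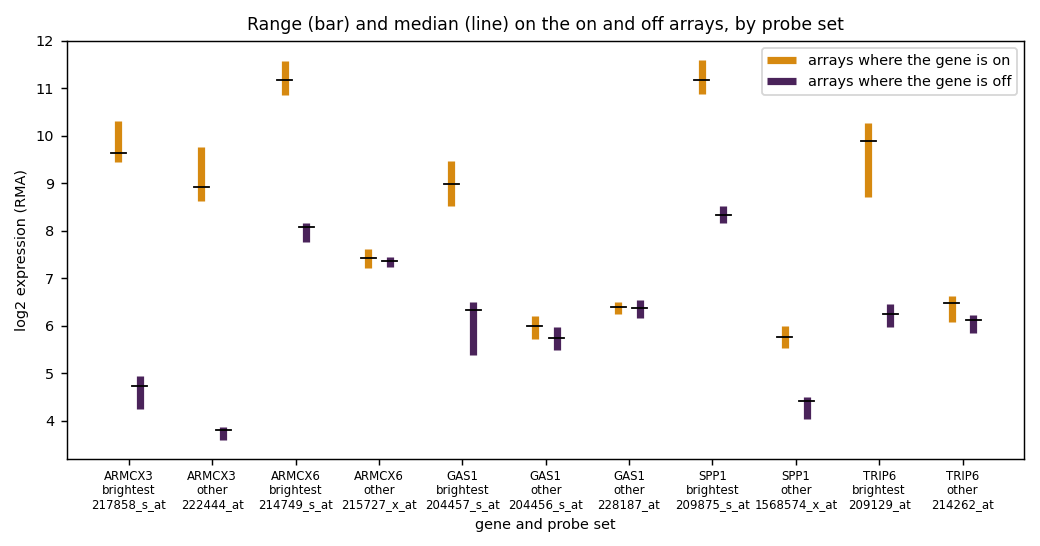
Log2 level (vertical axis) of every probe set of the 5 genes that have more than 1, as the range (bar) and median (line) over the on arrays, left, and the off arrays, right, as set by the brightest probe set. The second probe sets of ARMCX3 and SPP1 separate in the same way, and those of ARMCX6, TRIP6 and GAS1 stay within 0.782 log2 units.

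The gap rule was met by 13 of all genes, or 0.0657%, where the median gap was 0.0972 and the 99th percentile 0.723 log2 units. The gaps of the 10 genes ran from 2.01 to 4.52, with a median of 2.55. GAS1 lay just inside the rule at 2.01, and TMLHE and AOC1 just outside it at 1.97. The 3 further genes that met it were POGLUT3 (2.58), MMP1 (2.16) and FABP4 (2.01).

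Only 1 of these 3 genes had a split of the 10. POGLUT3, which adds glucose to proteins with EGF repeats, was high on exactly the 6 GAS1-on arrays, at 7.34 to 8.18 against 4.31 to 4.75. MMP1, a collagenase, was low on 9 arrays, 3 from each of the ARMCX3-off, PYCARD-off and GAS1-on arrays. FABP4, a fatty-acid binding protein, was low on 6, namely 3 PYCARD-off and 3 GAS1-on arrays.

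Counting every gene with a gap above 1 log2 unit gave 77, of which 41 had a split of the 10 genes and 36 another. The smaller side held 3 arrays in 19 genes, 6 in 47, 9 in 7 and 12 in 3, so 76 of the 77 split in multiples of 3. The last gene had 1 array on its smaller side.

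**Figure D4:**
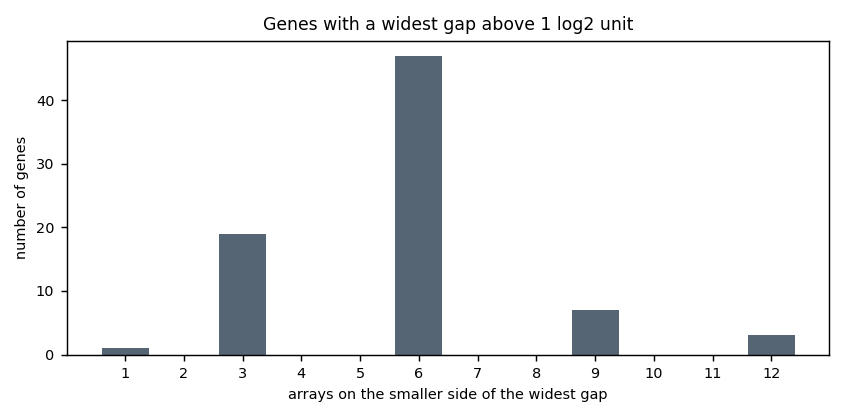
Number of genes (vertical axis, from 0) with a gap above 1 log2 unit, by the number of arrays on the smaller side of the gap (horizontal axis). The 77 genes stand at 1, 3, 6, 9 and 12 arrays, and the tallest bar is 47 genes at 6 arrays.

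Genes most like the 8 of the shared split were taken by separation, the distance between the 6 ARMCX3-off arrays and the other 18, at 1 log2 unit or more. There were 20 such genes besides the 8 that were lower on the 6 arrays, and 6 that were higher. TMLHE, an enzyme of carnitine synthesis, was 5.66 to 6.19 on the 6 arrays and 8.16 to 8.57 on the others. CNN3, an actin-binding calponin, was 4.91 to 5.95 and 7.87 to 9.22, and B9D1, a protein of the ciliary base, 8.35 to 8.59 and 10.45 to 11.28, on the same arrays. The genes with the widest separation in the other direction were POF1B (1.77), CST6 (1.69) and ABCG1 (1.57), a sterol exporter.

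PYCARD had fewer companions. No other gene was lower on the PYCARD-off arrays by 1 log2 unit, and AOC1, which degrades histamine, was higher there by 1.97. With GAS1, POGLUT3 (2.58), CALD1 (1.25) and FABP5 (1.20) were higher on the GAS1-on arrays, and EPHX4 was lower by 1.87.

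The rest of each pathway was read for whether all 6 arrays of a set lay beyond all other arrays. Over all genes, 2.39% were lower and 2.14% higher on the ARMCX3-off arrays in this sense, against 0.167% and 0.207% for the PYCARD-off arrays and 0.116% and 0.263% for the GAS1-on arrays. Of 17 other measured genes of the X-linked ARMCX, BEX and TCEAL cluster, 4 (BEX2, TCEAL3, TCEAL4 and TCEAL8) were lower and 1 (TCEAL1) higher on the ARMCX3-off arrays. TCEAL8 was 7.46 to 8.37 on those arrays and 9.60 to 10.24 on the others, the only one with a gap above 1 log2 unit. On the GAS1-on arrays, 2 of the 17 were higher, BEX2 with a separation of 0.80, wider than its 0.41 on the ARMCX3-off arrays, and TCEAL8 with 0.04. On the PYCARD-off arrays, 1 was lower, GPRASP3 with a separation of 0.66. On the ARMCX3-off arrays TCEAL1 was 9.78 to 10.34, against 8.70 to 9.37 on the others. ARMCX1, ARMCX2, ARMCX4 and ARMCX5 overlapped, so the split was not shared by the whole family.

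**Figure D5:**
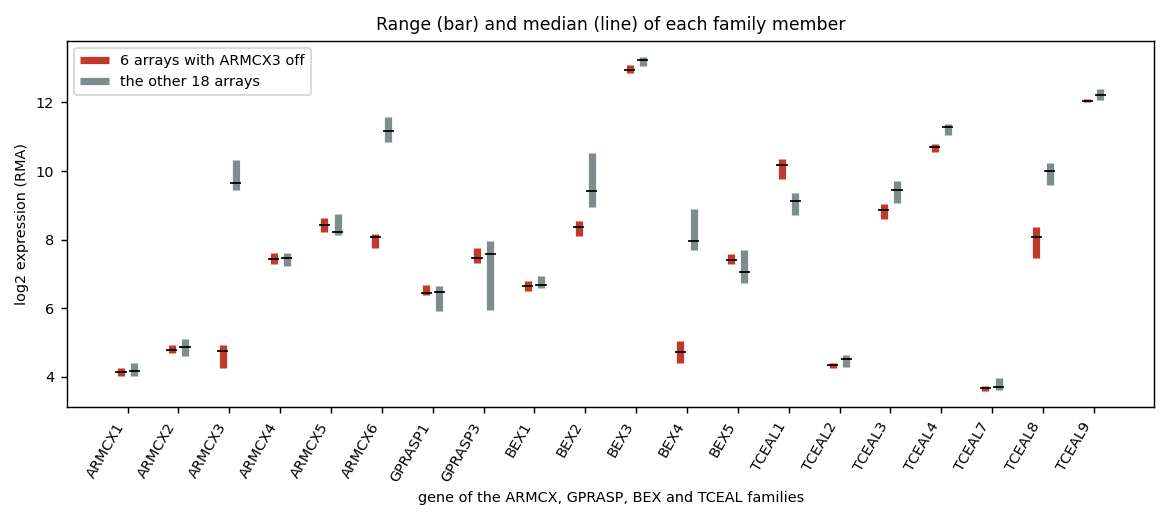
Log2 level (vertical axis) of the measured ARMCX, BEX and TCEAL family genes, as the range (bar) and median (line) over the 6 ARMCX3-off arrays, left, and the other 18, right. ARMCX3, ARMCX6 and BEX4 have gaps above 2 and TCEAL8 a gap of 1.23, whereas ARMCX1, ARMCX2, ARMCX4 and ARMCX5 overlap.

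Of 19 other inflammasome genes, 0 lay apart on the PYCARD-off arrays, where 0.167% of all genes were lower and 0.207% higher. A count of 0 is near that share and says little about the pathway. CASP1, the protease that PYCARD recruits, was 10.34 to 10.74 there and 9.94 to 10.84 elsewhere. On the ARMCX3-off arrays, where 2.39% of all genes were lower, 3 of the 19 were so: CASP1, the pore protein GSDMD and CARD16. Their separations were 0.22 for CASP1, 0.08 for GSDMD and 0.05 for CARD16. The widest gap of the list, 0.63, was that of CARD16, but it lay between 21 arrays and 3 and not at this split. Of 14 other Hedgehog pathway genes, 0 lay apart on the GAS1-on arrays, again near the share over all genes (0.116% lower and 0.263% higher). The widest gap was 0.41 for the ligand SHH, which was higher on the ARMCX3-off arrays.

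The partners of the shared-split genes mostly overlapped between the ARMCX3-off and the other arrays. So did most genes measured, of which 2.39% were lower and 2.14% higher there. Of 9 zyxin-family and adhesion genes, 0 lay apart, with the widest gap at 0.18 for AJUBA, and of 9 ubiquitin-conjugating enzymes, 0 lay apart, with the widest at 0.59 for UBE2C. Of 12 osteopontin relatives and receptors, ITGA5 was lower, by 0.0012 at the nearest arrays, and the widest gap was 0.21 for CD44. Of 10 cortactin and HCLS1 partners, the kinase SYK was lower and the Arp2/3 subunit ACTR3 higher, and the widest gap was 0.28 for LYN.

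Neighbouring genes were read from the RefSeq table, taking the 2 nearest measured genes on each side of each of the 10. Of 38 places held by other genes, 2 were apart in the direction of the member, both beside BEX4: TCEAL8 with a separation of 1.23 and BEX2 with 0.41. ARMCX1 and ARMCX2 were counted beside both ARMCX3 and ARMCX6. Over all genes, 2.39% were lower on the ARMCX3-off arrays, 0.167% lower on the PYCARD-off arrays and 0.263% higher on the GAS1-on arrays. A count of 2 among 38 is not far from the first share and was not tested. ARMCX6 and ARMCX3 are adjacent with 0 measured genes between them, and 12 measured genes lie between ARMCX3 and BEX4. UBE2E1, next to UBE2E2, was 12.22 to 12.48 on the on arrays and 12.23 to 12.36 on the off arrays. GAS1RR beside GAS1, PYCARD-AS1 beside PYCARD, and IBSP and MEPE beside SPP1 overlapped too.

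HCLS1 is best known from leukocytes, so markers of other cell types were read on the same arrays. Of 13 leukocyte markers, 0 lay apart in any set, where at most 2.39% of all genes did so in 1 direction. PTPRC, the pan-leukocyte marker, was 5.60 to 5.97 over all arrays. The summed log2 level of the 13 was 97.1 to 99.6 on the ARMCX3-off, 97.1 to 99.8 on the PYCARD-off, 96.7 to 99.2 on the GAS1-on and 98.1 to 99.5 on the remaining arrays. The 10 fibroblast markers, of which 0 lay apart, summed to 77.1 to 77.8, 76.9 to 78.2, 77.0 to 78.7 and 77.3 to 77.9 on the same sets, with medians from 4.94 for POSTN to 9.23 for COL1A1 and 13.14 for LUM. Of 6 macrophage markers, 0 lay apart, with sums of 38.0 to 38.7, 38.0 to 38.9, 37.9 to 39.2 and 38.6 to 39.1. The 14 urothelial and epithelial markers did separate, with sums of 161.5 to 165.4 on the ARMCX3-off, 159.0 to 160.4 on the PYCARD-off, 158.9 to 160.9 on the GAS1-on and 157.8 to 159.4 on the remaining arrays. Of these markers 1, UPK1B, was higher on all 6 ARMCX3-off arrays than on every other array, by 0.03 at the nearest arrays. All other markers overlapped. On the ARMCX3-off arrays the median was 12.04 for UPK1A, 9.78 for UPK2, 6.56 for KRT20 and 10.85 for the basal keratin KRT5, against 10.52, 8.76, 5.74 and 11.84 on the others. Medians of UPK1B, CDH1, KRT7, KRT8, KRT19, GATA3 and PPARG were also higher there. Those of EPCAM (12.85 against 12.93), KRT18 (13.80 against 13.95) and UPK3A (7.21 against 7.23) were lower. The part of these differences in the states of the 8 genes was not tested.

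RNA quality overlapped between the sets. The 3′ minus 5′ signal of ACTB was 0.79 to 1.17 on the ARMCX3-off, 0.70 to 1.06 on the PYCARD-off, 0.70 to 0.95 on the GAS1-on and 0.73 to 0.94 on the remaining arrays, and its part in the states was not tested. FGFR3 itself was 11.13 to 11.43 on the PYCARD-off arrays, below the 11.83 to 12.22 of the ARMCX3-off, 12.13 to 12.34 of the GAS1-on and 11.92 to 12.08 of the remaining arrays. The lowest levels of the brightest FGFR3 probe set were thus on the arrays where PYCARD was off, and 4 of those 6 arrays were labelled without doxycycline. TACC3 was 11.31 to 12.62 on the PYCARD-off, 10.49 to 11.96 on the ARMCX3-off, 11.34 to 12.27 on the GAS1-on and 11.83 to 12.12 on the remaining arrays. The PYCARD-off arrays held 2 levels of TACC3. On 3 of them it was 12.50 to 12.62, its highest levels over all arrays. On the other 3 it was 11.31, 11.35 and 11.43, below the remaining arrays. A lower level of the fusion RNA over all 6 PYCARD-off arrays is thus not shown.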

How the data were processed

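The deposited values were log2 expression values of 54675 probe sets per array. RMA and the affy package are named without versions in the submitters' processing notes, and the sources used here do not give the probe grouping. RMA's quantile step gives all arrays nearly the same distribution, and array medians were 6.98 to 7.08. Precision is limited by the number of arrays, and 0 pairs of arrays held identical values.

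Gene names came from the platform annotation in GEO, with 41097 probe sets naming a single gene, 1801 several and 11777 none. The first kind was kept, and Entrez identifiers of 41043 were found in RefSeq (GRCh38.p14) with 0 changes of symbol. The probe set with the highest mean stood for each gene, and no filter on low values was used.

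Sorting and gap rules were computed in Python 3.11.15 with numpy 2.4.6 and pandas 2.3.3. The labels were tested with limma 3.58.1 in R 4.3.3, using 8 group means, 16 residual degrees of freedom and 3.13 from the prior, Benjamini-Hochberg adjustment over all genes and a threshold of 0.05. On simulated data for 19775 genes, the F-test among lines found 98 of 100 genes simulated with a 2-fold change and 98 of 100 with a 4-fold change, and made 7 false calls. Those values were drawn independently for each array, and the changed genes were picked at random. The 10 genes had SDs within groups of 1.36 to 2.66, so this recovery does not carry over to them. Alternatives were other probe sets, gap thresholds, a filter on dim genes, median centring, array weights, a replicate block, fits by line and each array left out.

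The genes, lists and rules were chosen with earlier results of these data known. Genes named are the 10, all others past the gap rule and the 2 nearest below it, up to 3 genes per direction most separated by a split, list members with a gap above 1 or else the widest, the nearest neighbours, and FGFR3 and TACC3. Others, including list members lying apart, were named after their values were seen.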

Additional observations from a re-analysis of the deposited data

How the results depend on the processing

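All 10 genes kept a gap above 2 log2 units and their split when each array was left out in turn, and the split under a 2-cluster cut. Leaving out 1 array cannot narrow a gap with several arrays on each side, so the kept gaps were fixed in advance and show no robustness. After median centring, 10 kept the split and 9 the gap, with GAS1 at 1.96. The number of genes meeting the rule was 13, and became 30 at a gap of 1.5, 6 at 2.5, and 13 to 14 with each array left out, an alternative chosen after seeing the data. For the same reason, leaving out 1 array could not bring this count below 13. Genes sharing a split numbered 41, and became 104 at a separation of 0.5 and 24 at 1.5. Every count of genes called from the labels stayed at 0 with each array left out, and a filter on dim genes left 9888 genes and 8 of the 10, with 0 calls. The change with doxycycline in the 6-16 line called 1291 genes with array weights, 1 with the arrays of that line alone and 1 with a replicate block, and the F-test among the 8 groups called 1 with array weights. Same-numbered arrays deviated together in 43 of 84 pairs at a correlation over 0.1. The correlations ran from -0.73 to 0.88 with a median of 0.13, so whether the numbers pair samples was not settled. The replicate block called 0 of the 10 genes.

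The difference between the FGFR3 and EGFP lines changed sign with array weights for ARMCX3 (0.69), ARMCX6 (0.29), BEX4 (0.33), SPP1 (0.33) and UBE2E2 (0.019), and for GAS1 on its other probe sets (-0.23 and -0.0084). The change of GAS1 in the 4-1 line also changed sign on the brighter of these 2, to 0.11. The cause was not tested. With each array left out, the difference ran from -1.47 to 1.22 for ARMCX3, -1.05 to 0.65 for ARMCX6, -1.52 to 0.73 for BEX4, -1.91 to 0.11 for HCLS1, -1.71 to 0.25 for C16orf54, -1.47 to 0.37 for UBE2E2, -1.78 to 0.018 for TRIP6, -0.93 to 0.58 for PYCARD, -1.02 to 0.61 for SPP1 and -1.06 to 0.95 for GAS1, with 0 calls. The line changes ran from 0.36 to 2.83 for ARMCX3 in 2-4, 1.28 to 2.83 for PYCARD in 6-16 and -2.82 to -1.22 for GAS1 in 4-1. Signal near background limits the off levels, which may be lower than the values given.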

Other observations

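Genes of 1 stretch of chromosome 17 were also low on the ARMCX3-off arrays, a pattern noticed after the values were seen and given without a test. Among the 28 genes separated by 1 log2 unit or more as lower there, the 8 genes above included, 5 lay on X (17.9%, against 3.53% of measured genes), 4 on chromosome 4 (14.3%, against 4.01%) and 4 on chromosome 17 (14.3%, against 5.71%). Those on chromosome 4 were SPP1, PCDH7, PDGFC and GASK1B. The 4 on chromosome 17 were CENPV, PRPSAP2, B9D1 and MAPK7. CENPV, a centromere protein, was 8.68 to 9.21 on the 6 arrays and 10.35 to 11.14 on the other 18, and MAPK7, the kinase ERK5, was 8.80 to 8.92 and 10.32 to 10.61. PRPSAP2, which associates with the enzyme that makes nucleotide precursors, was 10.12 to 10.34 and 11.42 to 11.79.

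The stretch from CENPV to MAPK7 held 50 measured genes, and 27 of them were lower on all 6 ARMCX3-off arrays than on every other array, against 33 of 1076 (3.07%) on the rest of chromosome 17. CENPV and MAPK7, the ends of the stretch, were themselves taken for their separation on these arrays. They are counted among the 27, as are PRPSAP2 and B9D1, so this contrast is partly built in. Of the 26 genes in the stretch whose median level was at or above that of all genes, 22 lay apart in this way and 26 had a lower median on the 6 arrays. None of the 10 genes lies on chromosome 17.

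The interferon-induced genes IFI27 and IFI6 had the shared split as well. IFI27 was 5.29 to 6.32 on the ARMCX3-off arrays and 8.11 to 8.60 on the others, and IFI6 was 6.65 to 7.64 and 9.06 to 9.83. IFI16, also interferon-induced, overlapped, at 9.27 to 9.75 and 9.53 to 10.48. These genes were picked after their values were seen. No list of interferon-induced genes was read here, so nothing is shown for the class.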
